A study of Homo sapiens with 8 samples.

Results

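The 9 genes described here encode proneural basic helix-loop-helix (bHLH) factors and zinc finger factors of the INSM family: NEUROD1, NEUROD2, NEUROD4, NEUROD6, NEUROG1, NEUROG2, NHLH1, INSM1 and INSM2. They were found by matching the Ensembl identifiers of the deposited tables to these symbols in GENCODE, which gave 9 of the 60668 rows. They were chosen by their RNA levels and fold changes in this same comparison, so these are given as a description, with standard errors and without p-values. The cells were D283 MED, an established line derived from a medulloblastoma, carrying a lentiviral, hygromycin-selected and doxycycline (DOX)-inducible FLAG-tagged OMOMYC transgene, the stable line D283-OMO. OMOMYC is a dominant-negative form of MYC that dimerizes with MYC and occupies its DNA sites. PolyA+ RNA was sequenced from 4 replicates of untreated cells (OMO) and 4 replicates of cells kept with DOX for 72 h (OMO+DOX). Both groups carry the transgene, and DOX-treated cells without it were not analysed here, so an effect of DOX itself cannot be told apart from that of OMOMYC. Whether the selected cells were a pool or a clone is not given in the sources used here.

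Proneural bHLH factors bind E-boxes, short DNA elements of the form CANNTG, as dimers with the broadly expressed E proteins. NEUROG factors act early and commit neural progenitors to a neuronal fate, while NEUROD and NHLH factors act later in differentiating neurons. ID proteins lack the basic region and hold E proteins away from DNA, and HES and HEY factors repress proneural genes downstream of Notch. INSM1 is a zinc finger repressor that recruits histone demethylase and deacetylase complexes in neuronal and neuroendocrine precursors, and INSM2 is its close relative. In the cerebellum, from whose precursors medulloblastoma arises, NEUROD1 is known for its role in granule neurons.

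Promoter sequence was examined because MYC and the proneural factors both recognize E-boxes, MYC preferring CACGTG. The RefSeq promoter table (GRCh38.p14, from 250 bases before to 50 after the annotated start) held 8 of the 9 genes, all except INSM1. Each window was searched for CANNTG on both strands, of which CACGTG is a special case. CACGTG was found in none of the 8 windows, and in 7.43% of all 27305 promoters of the table. CANNTG in any form stood in 68.9% of all promoters and in 5 of these 8. The windows of NEUROD1, NEUROG1 and NEUROG2 did not hold it. A match is only a run of letters, and its absence from such a window says nothing about binding elsewhere.

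The 250 bases before the starts of NEUROG1 and NEUROG2 are shown because these related genes had the highest and one of the lowest mean levels in OMO. They also differed in direction with DOX. NEUROG1 lies on the minus strand at chr5:135535965-135536214 and NEUROG2 on the minus strand at chr4:112516181-112516430. Capitals mark CpG dinucleotides.
NEUROG1: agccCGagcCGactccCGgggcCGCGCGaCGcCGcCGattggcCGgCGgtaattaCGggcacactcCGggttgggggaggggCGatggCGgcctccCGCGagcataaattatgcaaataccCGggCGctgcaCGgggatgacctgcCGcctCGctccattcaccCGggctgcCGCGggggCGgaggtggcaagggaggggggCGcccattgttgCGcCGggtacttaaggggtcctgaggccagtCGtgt
NEUROG2: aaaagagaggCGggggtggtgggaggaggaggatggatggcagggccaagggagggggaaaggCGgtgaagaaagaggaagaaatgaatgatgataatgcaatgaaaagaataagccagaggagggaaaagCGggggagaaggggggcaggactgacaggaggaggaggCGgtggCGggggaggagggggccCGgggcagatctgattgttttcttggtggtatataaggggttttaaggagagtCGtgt
The NEUROG1 stretch held 30 CpG and the NEUROG2 stretch held 7, against a median of 11 and a 90th percentile of 31 over all promoters of the table. Among the other genes, the same stretch of INSM2 held 30 CpG and that of NEUROD1 held 24. NEUROD2 had 12, NEUROD4 had 6, and NHLH1 and NEUROD6 had 4 each. Annotated exons of GENCODE 29 covered 0 of these 250 bases for NEUROG1 and NEUROG2 and all 250 for NEUROD1 and NEUROD2. They covered 168 for NEUROD6, 122 for INSM2, 29 for NEUROD4 and 4 for NHLH1. Methylation was not measured in these libraries.

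The E-boxes of NEUROD2, NHLH1 and INSM2 are shown in windows of 30 bases, with the E-box in capitals, because these genes had lower RNA in every OMO+DOX library. Positions count from +1 at the RefSeq start, and the first base before it is -1. By GENCODE 29, annotated exons covered all 250 bases before that start for NEUROD2, 122 for INSM2 and 4 for NHLH1. The NEUROD2 E-boxes thus lay in annotated exon. NEUROD2, on the minus strand of chromosome 17, held E-boxes at -138, -71 and -37.
NEUROD2 at chr17:39608041-39608070: agtagagagtgaCAGATGgcggcgggtccc
NEUROD2 at chr17:39607974-39608003: atcaccgtctctCATGTGatagctgctgcc
NEUROD2 at chr17:39607940-39607969: acgtgccaagccCATATGgcctggcataga
NHLH1, on the plus strand of chromosome 1, held E-boxes at -210 and -5.
NHLH1 at chr1:160366849-160366878: atgcatggagaaCAGATGtccctgctcccc
NHLH1 at chr1:160367054-160367083: gctgggccagctCAGGTGtgtgtgtctgag
The single E-box of INSM2, on the plus strand of chromosome 14, lay after the start, at 19.
INSM2 at chr14:35534170-35534199: gctcttctagttCATCTGctggccggctct
CAGATG, or CATCTG when read on the other strand, occurred in 4 of the 8 windows searched, those of these 3 genes and of NEUROD6, which had no counts, and in 14.8% of all promoters. CATATG, the NEUROD2 element at -37, occurred in 3.05%. CAGCTG, also searched, stood only in the NEUROD4 window, at -46, and in 17.7% of all promoters. Whether any form is more frequent in these genes was not tested.

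Levels are CPM, RSEM expected counts scaled for library size with TMM factors from edgeR. Counts were rounded for the filter and the fit. Library totals ranged from 46592947 to 54020506 counts in OMO and from 38390696 to 49249167 in OMO+DOX. The test covered 15222 genes, those above 1 CPM in 4 or more of the 8 libraries. For this filter CPM was scaled by library size only. Across genes, Pearson's r of log2 CPM was at least 0.989 within a group and at most 0.882 between groups. CAD and NCL, textbook MYC targets, were lower in OMO+DOX by a log2FC of -0.48 (SE 0.05) and -0.44 (SE 0.04), with adjusted p of 1.33e-06 and 1.23e-06 (quasi-likelihood test of edgeR, Benjamini-Hochberg adjusted). MYC RNA stood at 937 ± 75.5 CPM in OMO and 1120 ± 56.6 in OMO+DOX (SD, n = 4 each), and reads of the OMOMYC transgene, if any, cannot be told apart from MYC reads. Of 7 markers of Group 3 medulloblastoma, all were expressed, 5 lower and 2 higher in OMO+DOX at an adjusted p below 0.05 in the same test, which 38.1% of all genes tested passed as lower and 38.5% as higher. Their summed level ranged from 3117 to 3197 CPM in OMO and from 1753 to 1893 in OMO+DOX. OTX2, a defining marker, fell from 1046 ± 17.3 to 508.5 ± 1.78 CPM. Among markers of other cell types, those of blood summed to between 0.438 and 0.601 CPM in OMO and 1.92 and 2.61 in OMO+DOX (6 genes), with HBB at 0 throughout. Fibroblast markers summed to between 22.4 and 27.0 CPM over all libraries, nearly all of it COL1A1. The part of these genes in the results below was not tested. In bulk RNA, fewer cells of a type and less RNA per cell cannot be told apart.

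Of the 9 genes, 6 passed the filter and had lower RNA in every OMO+DOX library than in any OMO library, the most abundant being NEUROG1 and NEUROD1. The groups of INSM1 overlapped when scaled by library size only. INSM2 and NEUROD1 passed the thresholds for differential expression (FDR below 0.001 and log2FC below -2), and the count of genes called higher was 0 of 6. NEUROG2, too low to be tested, had more counts in every OMO+DOX library. NEUROD4 stayed near the detection limit and NEUROD6 had no counts. Over all genes tested, 2.75% were called lower and 4.38% higher by these thresholds. The groups did not overlap, with every OMO+DOX library lower, in 35.4% of genes, and with every OMO+DOX library higher in 36.3%. Since the genes were chosen with this comparison known, nothing is read from these shares.

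**Figure D1:**
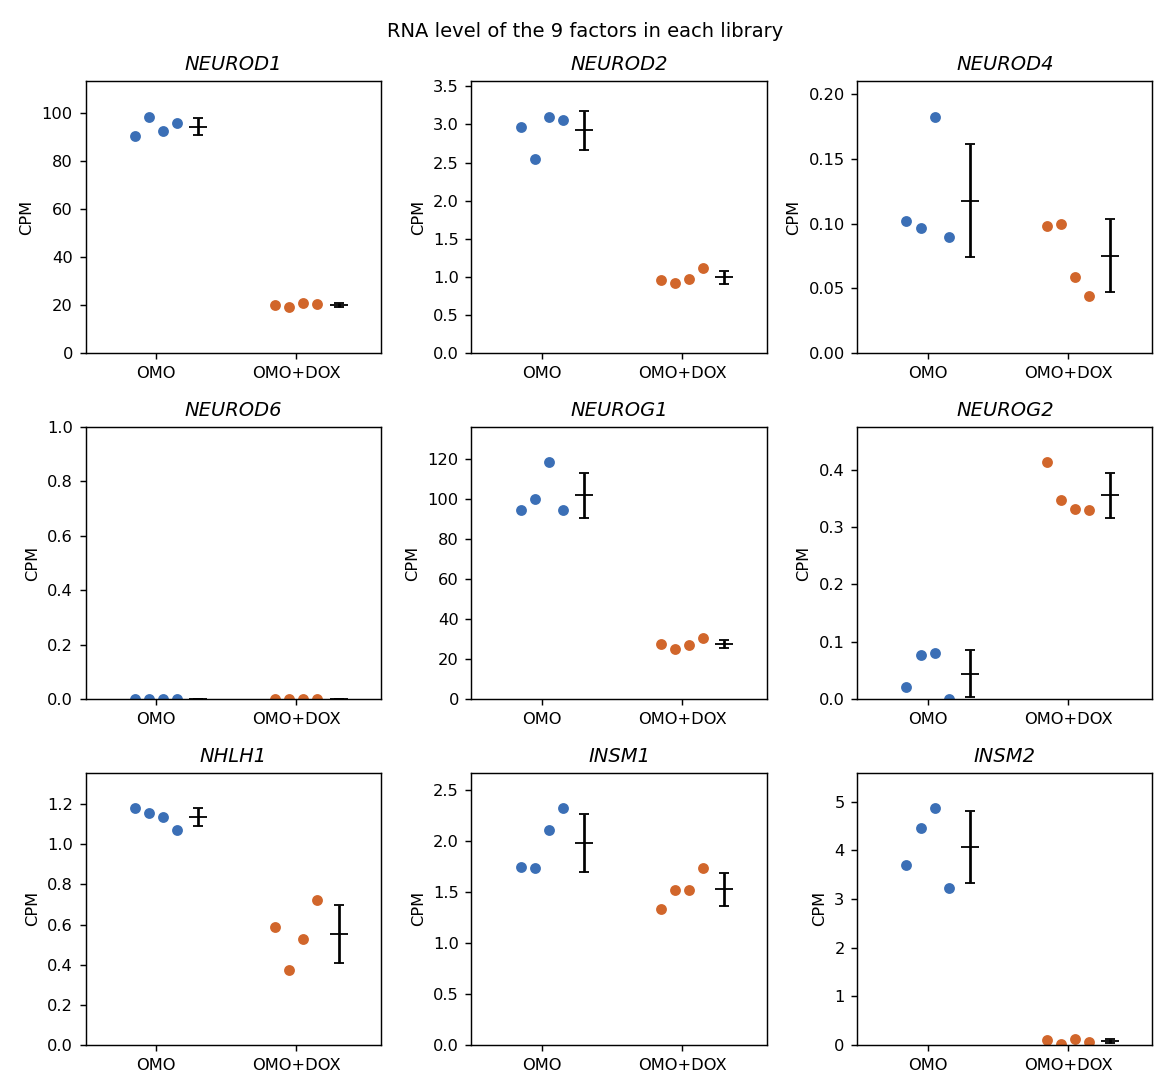
RNA level of each gene in CPM (vertical axis, linear from 0, a scale of its own in each panel) in the 4 OMO and 4 OMO+DOX libraries, drawn as points in replicate order with the mean and SD as bars. NEUROD1, NEUROD2, NEUROG1, NHLH1, INSM1 and INSM2 lie lower in all OMO+DOX libraries, NEUROG2 lies higher, NEUROD4 overlaps and NEUROD6 is at 0.

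NEUROG1 (ENSG00000181965.6), which initiates neurogenesis in progenitors, is a single-exon gene at chr5:135534282-135535949 on the minus strand (GENCODE 29, GRCh38). The OMO libraries gave 94.7, 100.1, 118 and 94.6 CPM. The OMO+DOX libraries gave 27.8, 25.0, 27.0 and 30.3 CPM. The groups were far apart, and the highest OMO library, replicate 3, stood above the other untreated libraries by more than the whole range of the DOX-treated ones. Means were 102 ± 11.2 and 27.5 ± 2.20 CPM (SD, n = 4 each), a 3.70-fold lower level (log2FC -1.89, SE 0.08). NEUROG1 thus lay just short of the log2FC threshold of 2. Backed by 19903 counts in OMO and 5182 in OMO+DOX, it had the highest mean level of the 9 genes in CPM in both groups. In OMO replicate 4, NEUROD1 lay above it, at 95.6 against 94.6 CPM.

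NEUROG2 (ENSG00000178403.4), its paralogue with a similar role in progenitors, lies at chr4:112513516-112516172 on the minus strand. It was found with 1, 4, 4 and 0 counts in the OMO libraries. Counts were 21, 14, 17 and 15 in the OMO+DOX libraries. Every DOX-treated library thus held more reads than any untreated one, although its level stayed below 1 CPM throughout. In CPM the means were 0.0447 ± 0.0407 and 0.356 ± 0.0392 (SD, n = 4 each). The pooled counts, 9 against 67, gave a 7.73-fold higher level, with an exact 95% interval from 3.84 to 17.6 that covers counting error only. An exon of NEUROG2 shares 92 bp with the antisense gene AC023886.1, which had 2 counts in OMO and 11 in OMO+DOX. The library kit is stranded, but whether counting used strand is not given in the sources used here.

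NEUROD1 (ENSG00000162992.3), a driver of neuronal differentiation and of granule neuron survival, lies at chr2:181673088-181680876 on the minus strand. Its level was 90.4, 98.5, 92.3 and 95.6 CPM in OMO. With DOX it was 19.9, 19.2, 21.1 and 20.4 CPM. Both sets of replicates were tight, with coefficients of variation of 3.80% and 4.00%, and did not overlap. The mean went from 94.2 ± 3.58 to 20.1 ± 0.806 CPM (SD, n = 4 each), 4.68-fold lower, with a log2FC of -2.23 (SE 0.05). NEUROD1 shares 236 bp of exon with CERKL on the same strand, and its expected counts were not whole in OMO replicates 1 and 3. CERKL itself stood at only 0.282 ± 0.0878 CPM in OMO and 0.135 ± 0.0567 in OMO+DOX.

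NEUROD2 (ENSG00000171532.5), active in maturing neurons, lies at chr17:39603536-39609777 on the minus strand. The untreated libraries held 2.97, 2.55, 3.10 and 3.06 CPM. The treated ones held 0.964, 0.920, 0.975 and 1.12 CPM. Groups did not overlap, and 3 of the 4 treated libraries fell under 1 CPM with TMM factors. On the scale of the filter, library size only, 3 of the 4 were above 1 CPM. The level was 2.92 ± 0.255 CPM in OMO and 0.995 ± 0.0870 in OMO+DOX (SD, n = 4 each), 2.94-fold lower (log2FC -1.55, SE 0.12).

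The other 2 NEUROD genes were scarcely detected. NEUROD4 (ENSG00000123307.4), a differentiation factor at chr12:55019945-55030014 on the plus strand, had 5, 5, 9 and 4 counts in OMO and 5, 4, 3 and 2 in OMO+DOX. These counts overlapped, and their pooled ratio was 0.632 with an exact 95% interval from 0.301 to 1.28, so no difference was detectable at this depth. NEUROD6 (ENSG00000164600.7), known from cortical pyramidal neurons, lies at chr7:31337461-31340894 on the minus strand. It had 0 counts in all 8 libraries, where 3 counts, the limit that a count of 0 allows, correspond to at most 0.0746 CPM.

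NHLH1 (ENSG00000171786.6), a bHLH factor of newly formed neurons, lies at chr1:160367067-160372848 on the plus strand. It stood at 1.18, 1.16, 1.14 and 1.07 CPM in OMO. Levels of 0.590, 0.373, 0.527 and 0.725 CPM were found in OMO+DOX. The untreated libraries lay close together just over the filter, while the treated ones lay below it and were more spread. The mean was 1.14 ± 0.0463 CPM in OMO and 0.554 ± 0.146 in OMO+DOX (SD, n = 4 each), 2.05-fold lower (log2FC -1.03, SE 0.17), from 222 and 105 counts. NHLH1 and INSM2 passed the filter through their OMO libraries alone, so their inclusion already required a higher level there.

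INSM1 (ENSG00000173404.5), a repressor used clinically as a neuroendocrine marker, is a single-exon gene at chr20:20368121-20370949 on the plus strand. OMO libraries gave 1.751, 1.737, 2.109 and 2.325 CPM. OMO+DOX libraries gave 1.337, 1.516, 1.521 and 1.735 CPM. OMO replicate 2 and OMO+DOX replicate 4 nearly touched, and only by this margin did the groups not overlap. Scaled by library size only, the groups overlapped. OMO+DOX replicate 4 (79 of 43856215 counts) then lay above OMO replicates 1 (86 of 50543277) and 2 (90 of 54020506). Means of 1.98 ± 0.287 and 1.53 ± 0.163 CPM (SD, n = 4 each) gave a 1.30-fold lower level, the smallest difference among the 6 genes tested (log2FC -0.37, SE 0.14).

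INSM2 (ENSG00000168348.4), also a single-exon gene, lies at chr14:35534042-35537054 on the plus strand. It had 182, 231, 240 and 144 counts in OMO, or 3.70, 4.46, 4.87 and 3.22 CPM. Only 5, 1, 6 and 3 counts remained in OMO+DOX, or 0.0983, 0.0249, 0.117 and 0.0659 CPM. INSM2 was thus clearly detected in each untreated library and close to the floor of 3 counts in each treated one. The fitted log2FC was -5.63 (SE 0.26). The pooled counts, 797 against 15, gave a 51.2-fold lower level, with an exact 95% interval from 30.9 to 91.9 that covers counting error only. With DOX, INSM2 was at 1.88% of its untreated mean and INSM1 at 77.1%.

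The median log2FC of the 6 genes tested was -1.72, beside a median of 0.01 over all 15222 genes. The choice of the genes by this comparison fixed that difference, and nothing is read from it. INSM2 and NHLH1 left the analysis when more than 4 libraries over 1 CPM were asked for, and NEUROD1 was then the only one of the genes called lower (1 in place of 2).

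**Figure D2:**
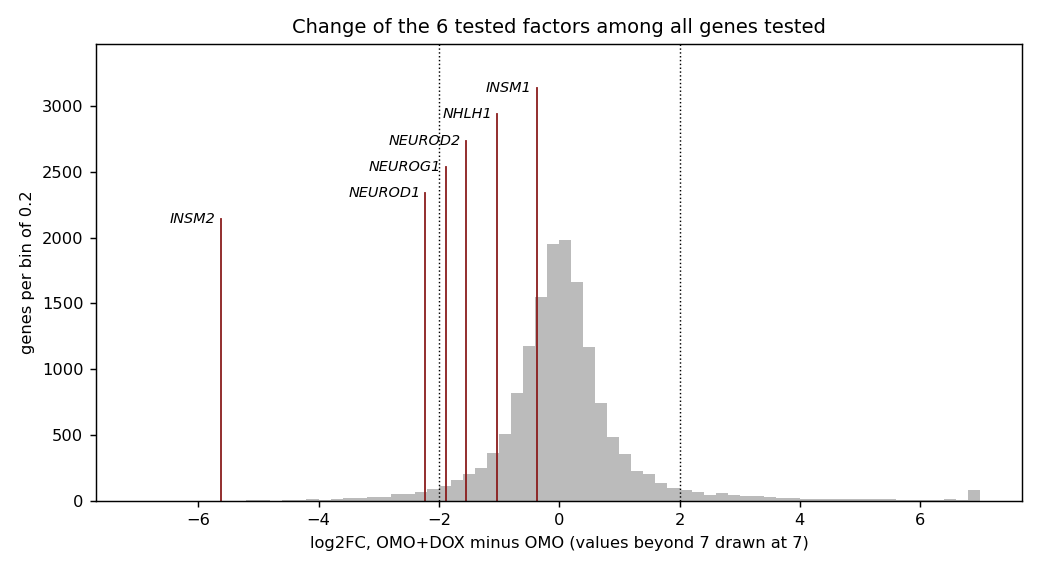
Distribution of log2FC (horizontal axis, OMO+DOX minus OMO) over the 15222 genes tested, as genes per bin (vertical axis). Red lines mark the 6 genes tested, from INSM2 at -5.63 to INSM1 at -0.37, at heights set for legibility only, and dotted lines mark log2FC of -2 and 2.

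Levels can be compared between genes only per length, and CPM was therefore divided by the kilobases of annotated exon. For NEUROD2 the exons of its 2 transcripts together cover the whole gene span of 6242 bp. Its level per kb may therefore be understated, and its place in the order and its share below depend on this length. In OMO, NEUROG1 stood highest at 61.1 CPM per kb, followed by NEUROD1 at 28.4. INSM2 came next at 1.35, then INSM1 at 0.700. NEUROD2, at 0.468 ± 0.0408, and NHLH1, at 0.444 ± 0.0181 (SD, n = 4 each), did not differ beyond their spread. NEUROD4 (0.0297 ± 0.0110) and NEUROG2 (0.0195 ± 0.0178) also lay within their spread of each other, above NEUROD6 at 0.

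In OMO+DOX the upper end of this order was the same, with NEUROG1 at 16.5 and NEUROD1 at 6.08 CPM per kb. INSM1 was now the third, at 0.540. NHLH1 (0.216 ± 0.0570), NEUROD2 (0.159 ± 0.0139) and NEUROG2 (0.155 ± 0.0172) followed and were not separated, since in OMO+DOX replicate 2 NHLH1 lay below the other two. INSM2, at 0.0254 ± 0.0134, and NEUROD4, at 0.0190 ± 0.00712, were within their spread at the bottom. Between the groups, INSM2 thus moved from the third place to the level of NEUROD4.

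Summed over the 7 bHLH genes, the level was 90.5 ± 6.66 CPM per kb in OMO and 23.1 ± 1.51 in OMO+DOX (SD, n = 4 each). NEUROG1 made up 67.4% ± 2.50 of the sum in OMO and 71.3% ± 1.22 in OMO+DOX, ranges of 65.6% to 71.1% and 70.1% to 72.9% that overlap. NEUROD1 made up 31.5% ± 2.48 and 26.3% ± 1.35, and every OMO+DOX library lay lower (at most 27.6%, against at least 27.9%). The sum over these 7 genes was therefore almost wholly NEUROG1 and NEUROD1 RNA in both groups. NHLH1 held 0.492% in OMO and 0.925% in OMO+DOX. For NEUROG2 the share was 0.0208% and 0.675%, and for NEUROD2 0.519% and 0.689%.

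**Figure D3:**
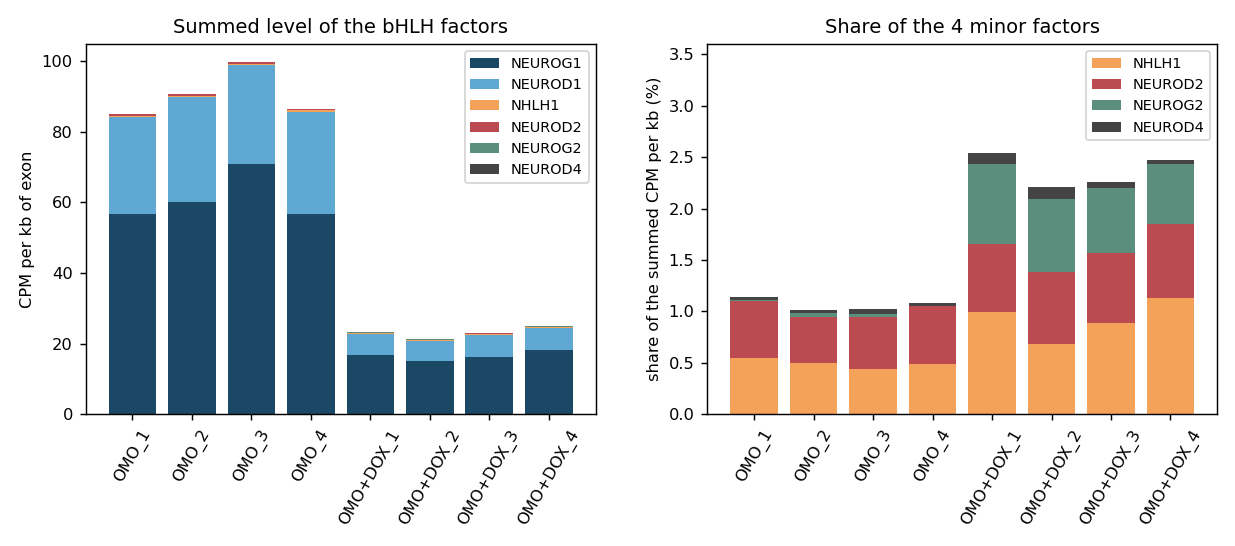
Left, summed level of the bHLH genes in CPM per kb of exon in each library, with NEUROG1 and NEUROD1 filling nearly the whole bar, which reaches 90.5 on average in OMO and 23.1 in OMO+DOX. Right, share of the sum in percent held by the 4 minor genes, where NEUROG2 (green) is visible mainly in OMO+DOX, at 0.675% on average.

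The genes whose profile over the 8 libraries was most like that of NEUROG1 were SH2D2A, STEAP1 and E2F1. Likeness was the root mean square difference of log2 CPM after centring each gene on its own mean, and it was 0.0495, 0.0548 and 0.0645 log2 units. SH2D2A had a log2FC of -1.96 and E2F1, a cell cycle transcription factor, one of -1.87. Nearest to INSM2 were GUCA1A, DCT and GRK1, at 0.460, 0.522 and 0.547 log2 units. Their log2FC were -5.03, -5.58 and -5.15, beside -5.63 for INSM2, whose OMO+DOX libraries held only 1 to 6 counts. With libraries in 2 groups, such likeness mainly picks genes of similar log2FC, and shared regulation was not tested. GUCA1A, a photoreceptor guanylate cyclase activator, had 130.1 ± 15.9 CPM in OMO and 3.96 ± 0.747 in OMO+DOX. DCT, a melanin synthesis enzyme, had 255 ± 26.7 and 5.35 ± 0.139 CPM. GRK1, the rhodopsin kinase, had 5.58 ± 0.418 and 0.153 ± 0.0808 CPM (SD, n = 4 each).

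The partners of the proneural factors, the 3 E proteins, moved in different directions. In lists like this a gene was counted when its Benjamini-Hochberg adjusted p over all 15222 genes, from the quasi-likelihood test of edgeR, was below 0.05, against the same 38.1% and 38.5% of all genes. Of the E proteins, 1 was lower, 1 higher and 1 did not pass, with a median log2FC of 0.14. TCF4 rose from 61.7 ± 8.85 to 133 ± 7.13 CPM (log2FC 1.11, SE 0.09, adjusted p = 5.36e-07 from edgeR). TCF3 fell from 150.0 ± 2.60 to 112 ± 5.19 CPM (log2FC -0.42, SE 0.05, edgeR adjusted p = 4.84e-06). TCF12 had 114 ± 11.6 and 125 ± 4.58 CPM (log2FC 0.14, SE 0.07, edgeR adjusted p = 0.0906), with every OMO+DOX library above every OMO library. Scaled by library size only, it passed (log2FC 0.26, edgeR adjusted p = 0.00842). Over all alternatives run, the adjusted p of TCF12 lay between 0.00842 and 0.202 (edgeR or DESeq2). The summed level of the list ranged from 299 to 335 CPM in OMO and from 363 to 377 in OMO+DOX.

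All 4 ID genes, the inhibitors of E protein dimers, rose, with a median log2FC of 1.38 beside 0.01 over all genes. ID3 rose from 30.4 ± 5.18 to 103 ± 9.13 CPM (log2FC 1.77, SE 0.11, edgeR adjusted p = 3.72e-08). ID1 rose from 25.6 ± 4.89 to 71.9 ± 6.27 CPM (log2FC 1.49, SE 0.12). ID2 rose from 7.51 ± 1.27 to 18.2 ± 1.48 CPM (log2FC 1.27, SE 0.11). The smallest rise was that of ID4, from 5.66 ± 0.408 to 8.65 ± 0.790 CPM (log2FC 0.61, SE 0.09, edgeR adjusted p = 4.61e-05). In each ID gene every OMO+DOX library exceeded every OMO library, as in 36.3% of all genes tested. No ID gene passed the log2FC threshold of 2. The summed level of the 4 genes ranged from 55.5 to 82.8 CPM in OMO and from 185 to 220.3 in OMO+DOX.

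Of 10 HES and HEY repressors, 5 were tested, of which 3 were lower, 1 was higher and 1 did not pass (median log2FC -1.19). HES6, an atypical member known to oppose HES1 and to favour neuronal differentiation, had the highest level and fell from 621 ± 63.8 to 85.3 ± 8.02 CPM (log2FC -2.86, SE 0.09, edgeR adjusted p = 8.67e-11). It was the only gene of the list differentially expressed. The others counted were named after their values were seen. HEY1 fell by 1.95 and HES1 by 1.19 on the log2 scale, and HEYL rose by 0.18. HES3 and HES5 had 0 counts in every library.

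Other neural bHLH factors were mostly unexpressed, with 3 of 15 tested, 2 lower and 1 higher (median log2FC -0.72). ATOH8, the most abundant, fell from 92.7 ± 6.31 to 50.7 ± 2.42 CPM (log2FC -0.87, SE 0.06, edgeR adjusted p = 6.56e-08). Named after their values were seen, OLIG2 fell by 0.72 and BHLHE22 rose by 0.51 on the log2 scale. NEUROG3 had 0 counts in all libraries.

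Among 18 genes known to act downstream of proneural factors, 11 were tested, 4 of them higher and 5 lower (median log2FC -0.14). The 3 differentially expressed genes were all higher. EBF3, of the EBF family of neuronal differentiation factors, rose from 0.948 ± 0.0871 to 124 ± 8.04 CPM (log2FC 7.02, SE 0.08, edgeR adjusted p = 9.07e-14). DLL1, a Notch ligand that proneural factors activate, rose from 0.434 ± 0.0692 to 8.94 ± 0.875 CPM (log2FC 4.36, SE 0.13, edgeR adjusted p = 6.26e-11). EBF1 rose from 0.296 ± 0.0781 to 2.20 ± 0.243 CPM (log2FC 2.90, SE 0.18, edgeR adjusted p = 3.34e-08). DLL1 and EBF1 passed the filter through their OMO+DOX libraries alone, so their inclusion required a higher level there, and both drop out when more than 4 libraries over 1 CPM are asked for. EBF2, named after its values were seen and not tested, had 0 counts in OMO and 78 in OMO+DOX, at least 6.69-fold higher when set against the floor of 3 counts per library. TBR1, a neuronal T-box factor and the most abundant of the list, fell from 691 ± 37.9 to 534 ± 17.1 CPM (log2FC -0.37, SE 0.05, edgeR adjusted p = 3.00e-05).

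All 11 genes of the corepressor complex that INSM1 and REST recruit were tested, 4 higher and 5 lower, none past the log2FC threshold (median log2FC -0.06). HDAC2, a histone deacetylase and the most abundant, fell from 308 ± 7.26 to 230.3 ± 5.11 CPM (log2FC -0.42, SE 0.04, edgeR adjusted p = 1.81e-06). REST, the repressor of neuronal genes, was named after its values were seen and rose from 65.3 ± 8.61 to 81.9 ± 5.67 CPM (log2FC 0.33, SE 0.09, edgeR adjusted p = 0.00591). Of 18 neuroendocrine secretory genes, 12 were tested, 2 higher and 6 lower, with none differentially expressed (median log2FC -0.20). ENO2, the neuronal enolase and the most abundant, fell from 310.5 ± 14.0 to 198 ± 10.03 CPM (log2FC -0.65, SE 0.05, edgeR adjusted p = 3.20e-07). CHGA, a classical neuroendocrine granule protein named after its values were seen, had 11.6 ± 0.997 and 12.1 ± 0.773 CPM (log2FC 0.05, SE 0.08, edgeR adjusted p = 0.526).

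Genes of postmitotic neurons divided between directions, with 5 of 11 tested (15 listed) higher and 4 lower (median log2FC -0.01). ELAVL3, a neuronal RNA-binding protein, rose from 0.941 ± 0.170 to 21.4 ± 0.789 CPM (log2FC 4.51, SE 0.10, edgeR adjusted p = 4.95e-12). MAP2, a dendritic microtubule protein, rose from 1.95 ± 0.321 to 14.6 ± 0.921 CPM (log2FC 2.91, SE 0.11, edgeR adjusted p = 3.24e-10). NEFL, the light neurofilament chain, rose from 44.3 ± 1.01 to 285 ± 4.69 CPM (log2FC 2.68, SE 0.04, edgeR adjusted p = 5.06e-13). NEFM, the medium chain and the most abundant gene of the list, rose from 265 ± 7.80 to 363 ± 11.9 CPM (log2FC 0.45, SE 0.04, edgeR adjusted p = 1.73e-06). The 4 lower genes, named after their values were seen, were DCX, ELAVL2, NSG1 and STMN3, with log2FC of -1.96, -1.79, -1.43 and -1.11. ELAVL2 and ELAVL3, of the same family of RNA-binding proteins, thus moved in opposite directions.

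**Figure D4:**
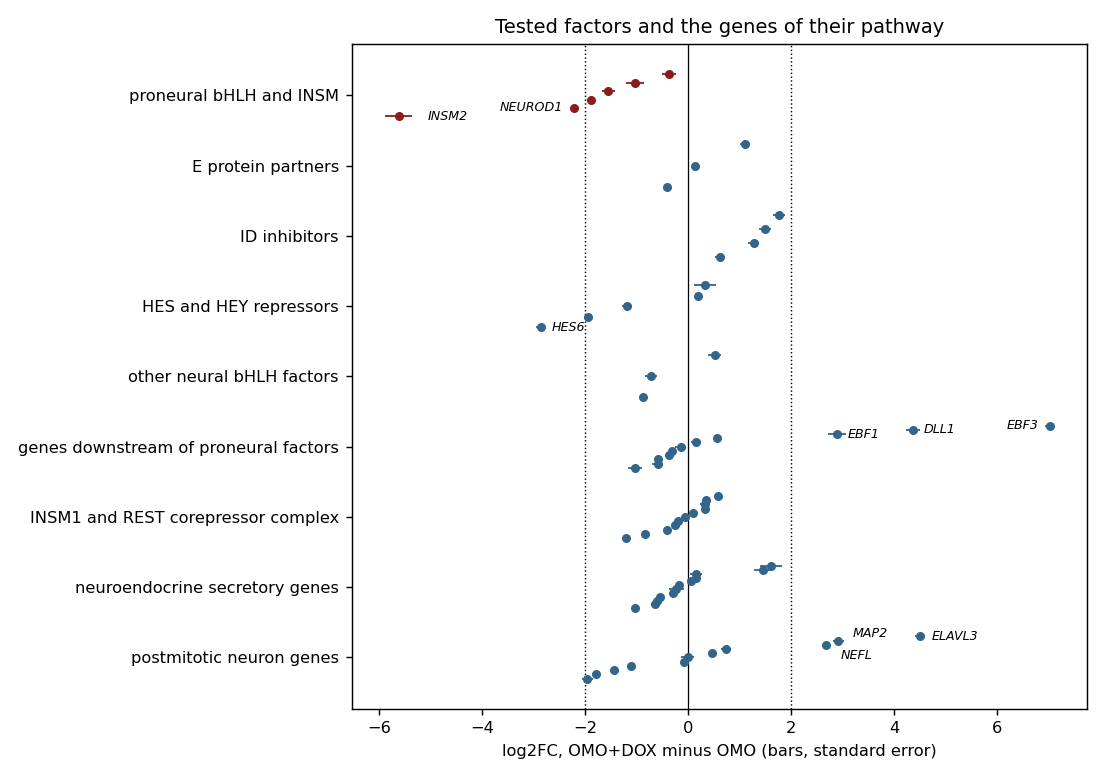
log2FC (horizontal axis, OMO+DOX minus OMO, horizontal bars for the standard error) of each tested gene, one row per list, with the proneural and INSM genes in red and dotted lines at -2 and 2. The 4 ID genes all lie to the right of 0, the 6 proneural and INSM genes all lie to the left, and EBF3 lies farthest right at 7.02.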

How the data were processed

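PolyA+ RNA of 4 OMO and 4 OMO+DOX replicates of D283-OMO cells was sequenced as paired, stranded libraries. The authors trimmed reads with Trim Galore, mapped them to GRCh38 by STAR with the annotation of GENCODE 32 and quantified genes with RSEM, with versions not given in the sources used here. The deposited values are expected counts per gene, not normalized. RSEM divides reads that match several genes, which can move counts between overlapping genes or close copies. Samples were grouped by their titles and treatment labels, and the replicates are described as independent.

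Rounded counts of genes above 1 CPM in 4 or more of the 8 libraries were fitted with edgeR 4.0.16 in R 4.3.3 (TMM, quasi-likelihood test, no covariates, Benjamini-Hochberg adjustment over all genes tested). Differential expression was taken at FDR < 0.001 with log2FC beyond 2 in either direction, and genes of lists were counted at an adjusted p below 0.05. The standard error of a log2FC was |log2FC| divided by the root of F. Totals of 38390696 to 54020506 counts put the floor of 3 counts at 0.0579 to 0.0746 CPM, and floors and count intervals cover counting error only. Symbols came from GENCODE 29 for 58561 of 60668 identifiers and from a table of gene names for 2088. Coordinates and exon lengths came from GENCODE 29 on GRCh38, and promoters from RefSeq (GRCh38.p14). Python 3.11.15 was used for tables (pandas 2.3.3) and exact intervals (scipy 1.17.1).

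The genes and lists were chosen with earlier results of these data known. Named were all 9 genes, every E protein and ID gene and, of each other list, at most 3 differentially expressed genes per direction with the largest log2FC plus the most abundant gene. CAD, NCL and MYC, genes overlapping an exon of the 9, and the 3 profiles nearest to the gene with the highest mean CPM and to that with the lowest log2FC were also named. Markers of cell types are named outside this rule. Alternatives were, for TMM, the size factors of DESeq2 1.42.0 or no scaling beyond library size, its Wald test, a looser FDR (0.01), 2 other low-count filters, a block for the replicate number, and each library left out in turn. The fits were tested on simulated data. Some genes of the lists are not reported here. Transcript levels and reads were not analysed here.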

Additional observations from a re-analysis of the deposited data

Results flagged for a closer look

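The 16 sets of 4 libraries (8 of the genes, without NEUROD6, in 2 groups) were each examined for a library far from the others by Dixon's criterion, and 1 was found where chance gives 0.8. It was NEUROD4 in OMO, where replicate 3 stood at 0.1825 CPM from 9 counts. The other OMO libraries had 5, 5 and 4 counts.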

How the results depend on the processing

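Of 351 values recomputed under an alternative, 334 kept their direction and their side of the threshold, or a count within 1.5 times, and the count that reversed was 0. For the 6 genes tested that threshold was an adjusted p of 0.05 (edgeR or DESeq2), used only to compare settings. The 4 that lost their side of the threshold were all log2FC values of INSM1. Since the genes were chosen with this comparison known, nothing is read from the values that kept it. The log2FC ranged from -2.25 to -2.10 for NEUROD1, -1.94 to -1.76 for NEUROG1, -1.62 to -1.42 for NEUROD2, -1.17 to -0.89 for NHLH1, -0.44 to -0.25 for INSM1 and -5.90 to -5.39 for INSM2. The study's methods state more than 4 samples over 1 CPM, while its results state at least 4, the filter used here. Its results give 15222 gene loci and 1084 differentially expressed genes, the counts also found here. With more than 4 libraries asked for, 14301 genes were tested and 562 were differentially expressed in place of 1084. Of the proneural and INSM genes 1 was then called lower in place of 2, and 2 downstream genes were higher in place of 4. By construction that filter leaves out genes above 1 CPM in 1 group alone, INSM2 and NHLH1 among them. Without a filter on low counts, 36881 genes were tested and 2097 were differentially expressed, and NEUROG2 was called higher (log2FC 2.86, SE 0.48, the 1 such call in place of 0). Genes counted higher then numbered 2 among HES and HEY repressors, 2 among other neural bHLH factors (with 4 lower), 7 among downstream genes and 4 among neuroendocrine genes. Library size only, which moved the median log2FC of all genes from 0.01 to 0.14, gave 2 E proteins and 5 neuroendocrine genes higher, in place of 1 and 2. INSM1 then had a log2FC of -0.25, its smallest. Leaving out 1 library in turn gave between 1072 and 1091 differentially expressed genes and 2 of the 9 genes called lower each time.

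Replicate numbers were not taken to pair the libraries, since not every pair correlated above 0.1: deviations of same-numbered libraries correlated at 0.157, 0.144, 0.241 and -0.176, other pairs at -0.0330 on average, and 2 of 8 libraries correlated best with their own number. With the replicate number as a block, 1085 genes were differentially expressed and 2 E proteins were higher in place of 1, the addition being TCF12 (log2FC 0.14, edgeR adjusted p = 0.0402). The block changed no other count of calls by over 1.5 times.

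Depth limited NEUROG2, NEUROD4 and INSM2 in OMO+DOX, whose values rest on few counts. RNA levels do not give protein or activity of the factors.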
